A study of Saccharomyces cerevisiae with 6 samples.

Results

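The comparison of an aft1 mutant of budding yeast with its wild type took up 2 of the 6 samples of a larger series, those whose titles pair wt with aft1 in experiments 1 and 2. Each sample held 1 log ratio for each of 6084 spots on a nylon membrane, and every spot was kept. The series set 3 strains of Saccharomyces cerevisiae against each other in pairs. Total RNA from exponentially growing cells was copied and hybridised to membranes that carry yeast genes, 5 µg of RNA each, and a phosphor screen recorded the signal over 3 days. The aft1 mutant is labelled Y18 and the wild type CM3260 (wt), and another strain, labelled Y18aft2delta (aft1aft2), entered the fit and is quoted beside some genes. All 3 strains are labelled minus iron, so a lack of added iron was shared and was not a difference between them. The labels give neither the form of the aft1 allele nor the number of isolates of each strain.

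Aft1 is a transcription factor that switches on the genes for iron uptake when yeast cells run short of iron. Yeast takes up iron by a reductive route, in which surface reductases, the copper-loaded oxidase Fet3 and the permease Ftr1 act together, and by a siderophore route, in which transporters of the ARN family import iron bound to small chelators and the FIT mannoproteins of the wall hold it. Many enzymes of respiration, of amino acid synthesis and of sterol and fatty acid synthesis need iron as a haem, a cluster or a bound ion, which is why iron supply reaches far into metabolism.

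Values below are log2 differences, aft1 minus wt, with each sample centred on its median. A value of 1 means 2-fold higher in aft1 than in wt relative to the typical spot, and -1 means 2-fold lower. Neither the base of the logarithm nor the direction of the ratio is stated. The base was taken as log2 and the direction is likely, from the order of the strains in the titles and from the known role of Aft1 in uptake, so the fall of the uptake genes was an input and not a result. Were the direction the other way, every sign below would turn and every size would stay. Errors are standard errors from a limma fit of all 3 strains, with the data taken as n = 2 hybridisations per strain. Differences between aft1aft2 and aft1 use the same aft1 hybridisations. Genes chosen for a high or low aft1 value therefore lean toward the opposite sign there. Adjusted p-values are two-sided and cover all 6084 spots, and a gene is said to have risen or fallen only where the adjusted p was under 0.05. Nothing in the labels says that separate cultures were used for the experiments, so a p-value here measures only the spread between hybridisations, which may be technical. Each membrane read the RNA of a whole culture, so less transcript per cell and fewer cells with the transcript cannot be told apart.

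At this threshold 89 of the 6084 spots passed, or 1.46%, with 51 higher in aft1 (0.838%) and 38 lower (0.625%). All 89 had the same sign in both experiments, and the smallest change among them was 1.43 in size. Without adjustment 939 spots had a p under 0.05, of which 491 were above 0 and 448 below. Counts of list members at an unadjusted p are to be read against these numbers out of 6084. A simple rule with no test, at least 2-fold the same way in both experiments, held for 117 spots higher (1.92%) and 122 lower (2.01%), and 7 spots stood at least 2-fold from 0 in opposite directions. The median gap between the experiments was 0.33 over all spots. Of the 89 spots 3 have no gene name in the tables used here. The changes ran from -5.85 for FIT2 to 3.98 for IZH4.

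**Figure D1:**
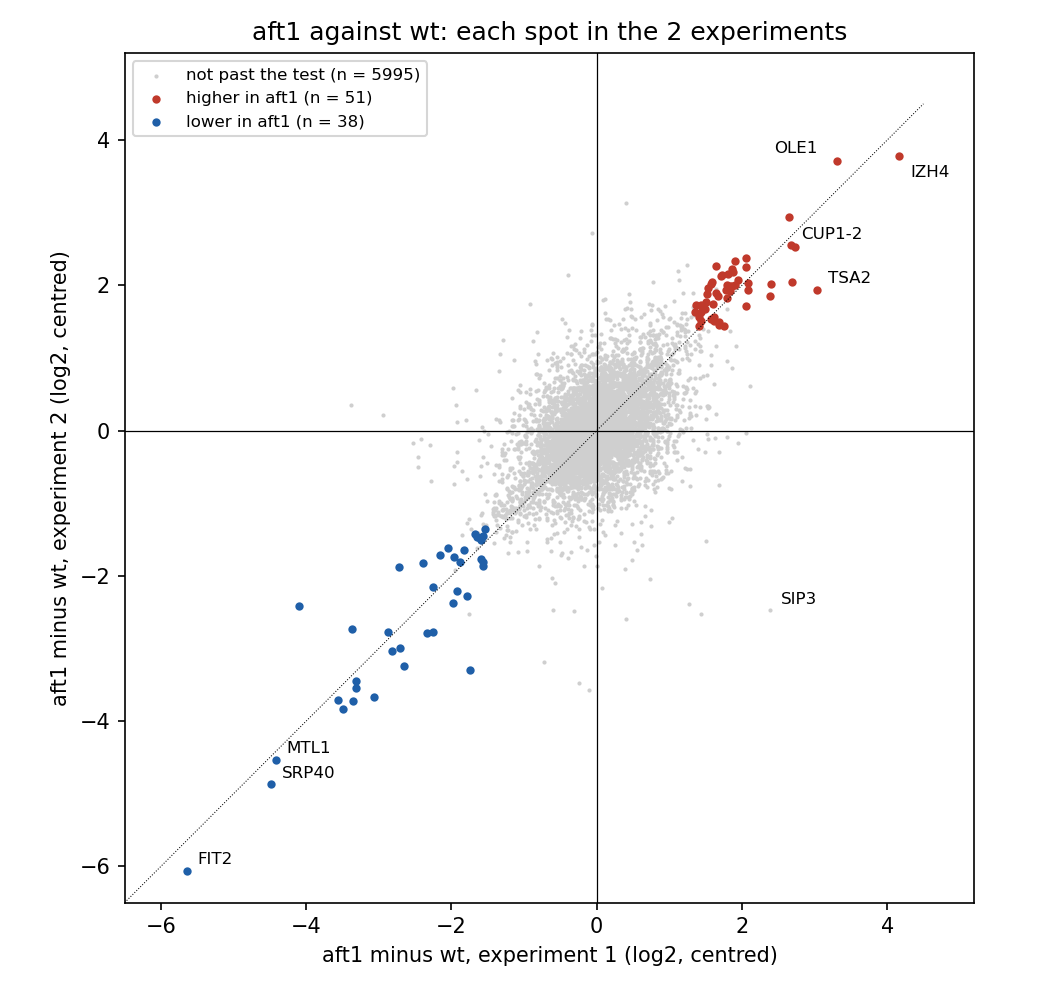
Each point is 1 of the 6084 spots, with its aft1 minus wt difference in experiment 1 on the x axis and in experiment 2 on the y axis (log2, each centred on its median), and the dotted line marks equal values. The 51 spots that were higher and the 38 that were lower in aft1 lie along that line, from FIT2 at -5.64 and -6.06 to IZH4 at 4.17 and 3.78, while SIP3 stood at 2.39 and -2.47.

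The number of calls turned on the hybridisations in the fit and on its settings. Leaving out an aft1 or a wt hybridisation leaves 1 for that strain, so fewer calls there need not mean that the hybridisations disagree. Without the aft1 hybridisation of experiment 1 or that of experiment 2, 7 and 4 spots passed, and without either wt hybridisation 48 and 38 did. Without either aft1aft2 hybridisation 233 passed, 117 higher and 116 lower. The 2 columns alone, which rest on the same aft1 and wt hybridisations, gave 44. Why these counts differ was not tested. In all 13 alternative settings the 89 spots kept their sign, and 4 of them passed in every one: FIT2, SRP40, MTL1 and IZH4. The kept signs are not a test. No block, a robust prior, averaged spots and leaving out aft1aft2 changed the errors of these spots and not their estimates. A call also needed a large change, alike in both experiments. With the values as deposited, without centring, all spots shifted upward by 0.26, and 58 spots passed, 44 higher and 14 lower, against the 51 and 38 above.

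The spots of the mutated gene and of the strain markers come first. The AFT1 spot was 0.15 in experiment 1 and -0.09 in experiment 2, with a mean of 0.03 ± 0.25 (adjusted p = 0.97), so the hybridisations labelled aft1 showed no loss of signal there. The removed part of AFT1 and the part the spot reads are not known here, so the spot does not check the labels. AFT2, which encodes the paralogue of Aft1, was -0.61 and -0.06 (mean -0.33 ± 0.54), also not past the test. In aft1aft2 against wt the AFT2 spot was -0.40 and 1.96 (mean 0.78 ± 0.54), below 0 in experiment 1 only, so it does not check the label aft1aft2 either, on which the values given for that strain rest. LEU2, a leucine synthesis gene that is often a strain marker, rose in aft1, at 2.40 in experiment 1 and 2.02 in experiment 2 (mean 2.21 ± 0.28 with adjusted p = 0.0265). TRP1, a tryptophan synthesis gene of the same use, was 1.24 and 2.28 and missed the threshold (mean 1.76 ± 0.31, adjusted p = 0.0648). These were high members of a list of 10 strain and auxotrophy markers. That list had a median of -0.002, with 5 above and 5 below 0. Of the 10, 3 were at least 2-fold higher in both experiments and 0 lower, and limma called 1 higher and 0 lower. Among the 4 genes that mark alpha cells all lay below 0, and the agglutinin gene SAG1 fell, to -1.96 in experiment 1 and -1.74 in experiment 2 (mean -1.85 ± 0.25 with adjusted p = 0.029). The 8 genes that mark a cells had a median of 0.01, with BAR1, the protease that degrades alpha factor, lowest at -1.54 ± 0.33 and not past the test. The part of these strain differences in the results below was not tested.

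Of the siderophore route, the wall mannoproteins moved furthest. FIT2 had -5.64 in experiment 1 and -6.06 in experiment 2 (mean -5.85 ± 0.24 with adjusted p = 0.0013), a 57.6-fold fall and the lowest value of all spots. FIT3, its neighbour on chromosome XV, had -3.07 in experiment 1 and -3.67 in experiment 2 (mean -3.37 ± 0.29 with adjusted p = 0.00944). The remaining member, FIT1, was -0.16 in experiment 1 and -0.16 in experiment 2 and did not pass (adjusted p = 0.823), so it lay near 0 in both experiments.

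The siderophore transporters followed at smaller sizes. ARN2 was -2.33 in experiment 1 and -2.79 in experiment 2 (mean -2.56 ± 0.25 with adjusted p = 0.0145), and SIT1, the ferrioxamine transporter, -1.92 in experiment 1 and -2.21 in experiment 2 (mean -2.06 ± 0.28 with adjusted p = 0.029). ARN1 was -1.95 and -1.92 and ENB1, the enterobactin transporter, -1.23 and -1.37, and both lay just outside the threshold (adjusted p = 0.0553 and 0.0706). All 4 transporters were below 0 in both experiments. Of the reductase genes FRE3, FRE4 and FRE5, counted with this route, none passed, and FRE4 was above 0 at 0.28 ± 0.24. Of the 10 measured genes of this route 4 fell and 0 rose, with a median of -1.61, against a median of 0.01 over all spots.

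Of the reductive route, 2 of 6 genes fell. FET3, the multicopper oxidase, had -3.32 in experiment 1 and -3.54 in experiment 2 (mean -3.43 ± 0.25 with adjusted p = 0.00567), which is 10.8-fold lower. FRE1, the main surface reductase together with Fre2, had -1.79 in experiment 1 and -2.28 in experiment 2 (mean -2.03 ± 0.25 with adjusted p = 0.0265). FTR1, the permease that works in a complex with Fet3, was -0.11 in experiment 1 and -0.10 in experiment 2 (mean -0.10 ± 0.29 with adjusted p = 0.903), so the FET3 and FTR1 spots stood far apart. FRE2 was -0.66 ± 0.42, and the copper carriers that load Fet3, CCC2 and ATX1, were -0.32 ± 0.49 and -0.24 ± 0.42, none of them past the test. The strain labelled aft1aft2, set against wt in a comparison that shares the wt hybridisations, had -3.49 ± 0.25 for FET3, -2.92 ± 0.25 for FRE1 and -1.69 ± 0.29 for FTR1.

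Genes for moving iron out of the vacuole and into mitochondria lay on the other side of 0. Of 9 measured 8 were above 0, with a median of 0.53, but limma called 0 of them, against 2 higher at an unadjusted p under 0.05. MRS4, a mitochondrial iron carrier, was highest at 1.12 in experiment 1 and 2.20 in experiment 2 (mean 1.66 ± 0.33 with adjusted p = 0.0776). SMF3, which exports iron from the vacuole, was 0.78 ± 0.27, and the vacuolar oxidase and permease genes FET5 and FTH1 were 0.41 ± 0.31 and 0.50 ± 0.29. CCC1, which brings iron into the vacuole, was 0.54 ± 0.32, also above 0, so importer and exporters were not separated by sign. YFH1, the yeast frataxin gene, was the member below 0, at -0.21 ± 0.24, and was above 0 with the values as deposited.

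Of 9 genes for regulators and mRNA decay factors of the iron response limma called 0. At an unadjusted p under 0.05 there were 3, of which 1 was higher and 2 lower. Above 0 lay 3 of the 9, the highest at 0.99, or 6 with the values as deposited. TIS11, also known as CTH2, which marks transcripts of iron-using enzymes for decay when iron is scarce, was -0.82 and -0.69 (mean -0.75 ± 0.26), and its paralogue CTH1 -0.23 ± 0.27. The glutaredoxin genes GRX3 and GRX4, whose products restrain Aft1 when iron is plentiful, were -0.76 ± 0.23 and -0.18 ± 0.31. Of 15 other genes reported as Aft1 or Aft2 targets, 13 lay above 0, limma called 0, and 8 were higher at an unadjusted p under 0.05. The highest were ECM4 at 1.52 ± 0.40, BNA2, for the first step of NAD synthesis from tryptophan, at 1.30 ± 0.27, and the aminopeptidase gene APE1 at 1.21 ± 0.27.

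**Figure D2:**
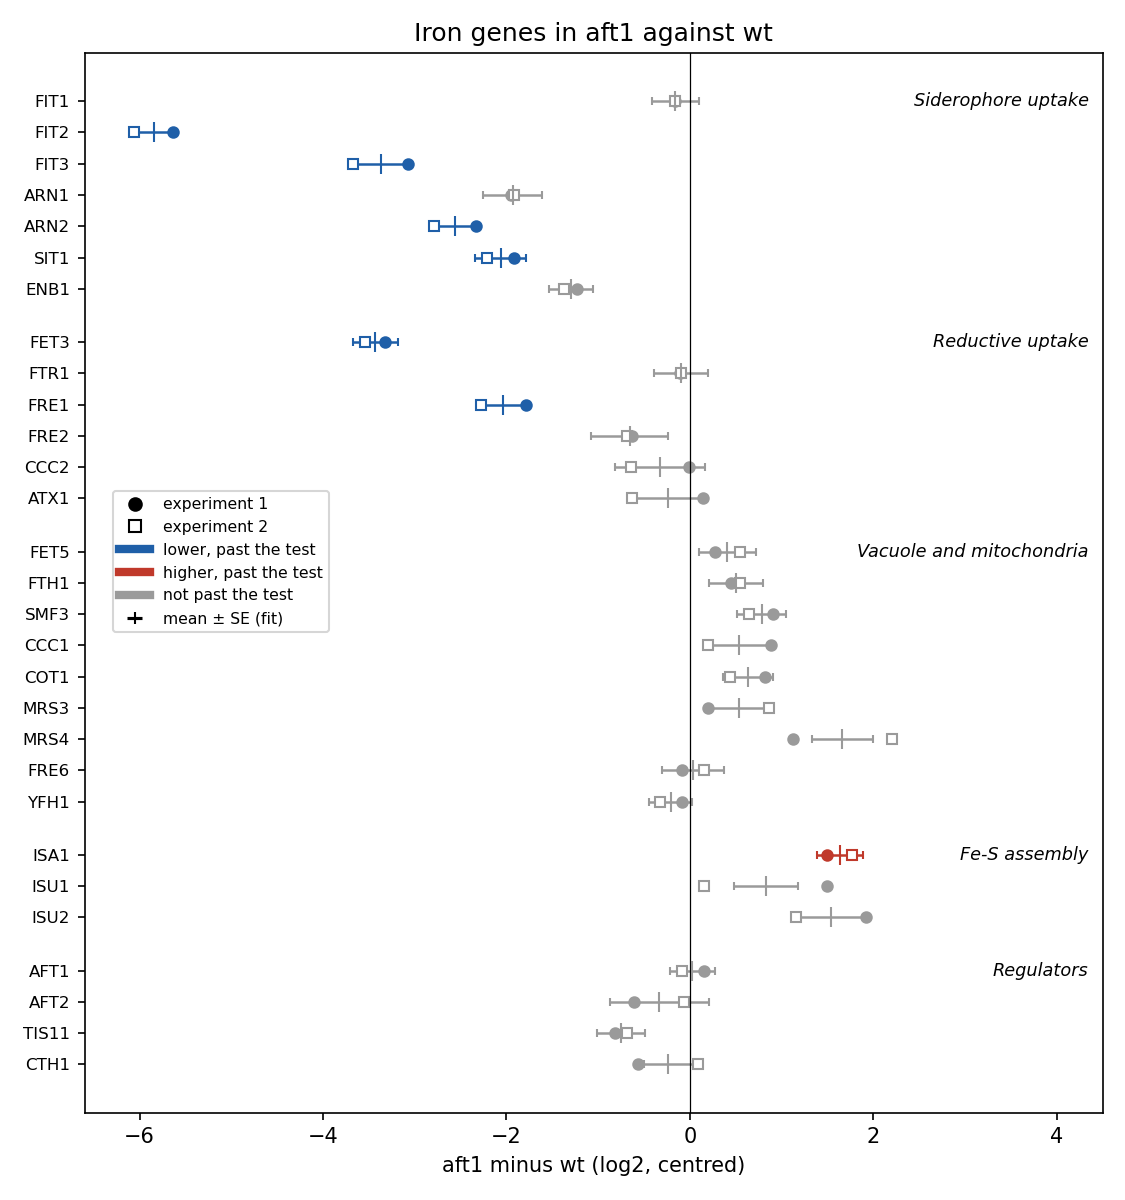
Rows are iron genes grouped by role, and the x axis is the aft1 minus wt difference (log2, centred), with a filled circle for experiment 1, an open square for experiment 2 and a bar for the mean ± SE of the fit. FIT2, FIT3, ARN2, SIT1, FET3 and FRE1 stand well left of 0, FIT1 and FTR1 stand near 0, and 8 of 9 vacuolar and mitochondrial genes lie right of 0, FRE6 the closest to it at 0.04 ± 0.34.

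Among genes for building iron-sulfur clusters 1 of 24 passed. ISA1, needed for clusters of the 4-iron kind in mitochondria, rose, with 1.50 in experiment 1 and 1.77 in experiment 2 (mean 1.64 ± 0.25 with adjusted p = 0.0386). ISU2, for the scaffold protein, was 1.92 and 1.16 and its paralogue ISU1 1.50 and 0.16, so the experiments lay further apart for ISU1 than for ISA1. NFU1, which helps to deliver clusters, was 0.46 and 1.77. The list as a whole had a median of 0.21, with 15 above and 9 below 0, while with the values as deposited the median was 0.47, with 21 above and 3 below. ISA1 lies next to HSP104 on chromosome XII, and that gene rose too, as given with the stress genes.

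In the tricarboxylic acid cycle IDH2, a subunit of NAD-dependent isocitrate dehydrogenase, rose to 1.87 in experiment 1 and 2.22 in experiment 2 (mean 2.05 ± 0.24 with adjusted p = 0.0252), and its partner IDH1 was 1.21 and 1.17 (adjusted p = 0.104). The iron-sulfur enzyme aconitase, ACO1, was 0.51 ± 0.25. Of 27 respiratory chain spots limma called 0, where 2 had an unadjusted p under 0.05, a smaller share than over all spots. Their median was -0.11 with 9 above and 18 below 0. The values as deposited turned that sign, with a median of 0.15, 18 above and 9 below. Of the 12 haem genes 0 were called, against 2 at an unadjusted p under 0.05, and HAP1, the haem-responsive activator, was highest at 1.36 ± 0.24 (adjusted p = 0.0652). In lysine synthesis, which runs through the iron-sulfur enzyme of LYS4, 8 of 9 genes lay below 0 (6 with the values as deposited), with a median of -0.91. There limma called 0, while 5 were lower at an unadjusted p under 0.05, LYS9, LYS12 and LYS20 the lowest at -1.17 ± 0.27, -1.16 ± 0.23 and -1.16 ± 0.23.

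Copper genes moved in both directions. Of 14 measured limma called 2 higher and 1 lower, where 0.838% and 0.625% of all spots were. Their median was -0.02, with 7 above and 7 below 0, or 11 and 3 with the values as deposited. CUP1-1 and CUP1-2, the metallothioneins that bind excess copper, rose, with 2.05 in experiment 1 and 2.25 in experiment 2 (mean 2.15 ± 0.24 with adjusted p = 0.0246) and 2.67 in experiment 1 and 2.55 in experiment 2 (mean 2.61 ± 0.23 with adjusted p = 0.0102). RSC30, a chromatin remodeller subunit next to CUP1-2 on chromosome VIII, rose as well, with 2.08 in experiment 1 and 2.03 in experiment 2 (mean 2.06 ± 0.25 with adjusted p = 0.0265). YHR054C, which lies between the CUP1 genes and resembles part of RSC30, was -0.08 and 0.24, so not every spot of this stretch was high. The CUP1 copies are near-identical and may share signal. CTR1, the surface copper transporter, fell, with -1.88 in experiment 1 and -1.81 in experiment 2 (mean -1.84 ± 0.23 with adjusted p = 0.0265), and FRE7, a reductase gene of the copper regulon, was -0.96 and -1.54 (adjusted p = 0.0807). MAC1, the activator of copper uptake genes, and CUP2, the activator of CUP1, were 0.17 ± 0.23 and 0.24 ± 0.25. Between aft1aft2 and aft1, CTR1 differed by 1.34 ± 0.23 (adjusted p = 0.0404) and CUP1-2 by -0.34 ± 0.23 (adjusted p = 0.431).

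IZH4 had the largest rise of all spots. This gene for a membrane protein of the progestin and adipoQ receptor family, linked to zinc and sterol handling, stood at 4.17 in experiment 1 and 3.78 in experiment 2 (mean 3.98 ± 0.25 with adjusted p = 0.00408), 15.8-fold higher. The other family members IZH1, IZH2 and IZH3 were 1.28 ± 0.26, 1.31 ± 0.32 and 0.81 ± 0.25, none past the test over all spots, so all 4 lay above 0. Genes of the zinc regulon, switched on by Zap1 when zinc is low, were mixed. Of 18 spots 7 lay above 0, the highest at 1.31, and 11 below. The median was -0.28, or -0.02 with the values as deposited. Limma called 2 lower and 0 higher, against 7 lower and 3 higher at an unadjusted p under 0.05. ZPS1, a wall protein, fell, with -2.71 in experiment 1 and -3.00 in experiment 2 (mean -2.85 ± 0.23 with adjusted p = 0.00828), as did the alcohol dehydrogenase gene ADH4, with -1.98 in experiment 1 and -2.38 in experiment 2 (mean -2.18 ± 0.29 with adjusted p = 0.029). The zinc transporter genes ZRT1 and ZRT3 were -0.71 ± 0.23 and -1.27 ± 0.24, not past the test. VEL1 and YOR387C, a pair of closely similar genes that may share signal, had -3.49 in experiment 1 and -3.84 in experiment 2 (mean -3.66 ± 0.39 with adjusted p = 0.0203) and -4.10 in experiment 1 and -2.42 in experiment 2 (mean -3.26 ± 0.42 with adjusted p = 0.0278).

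In fatty acid synthesis the desaturase stood alone with its activator. OLE1, which makes unsaturated fatty acids with a di-iron centre, had 3.31 in experiment 1 and 3.71 in experiment 2 (mean 3.51 ± 0.25 with adjusted p = 0.00525), 11.4-fold higher. MGA2, which activates OLE1 transcription, rose too, with 1.69 in experiment 1 and 1.50 in experiment 2 (mean 1.60 ± 0.23 with adjusted p = 0.0345), while SPT23, the other activator, was 0.25 ± 0.28. The list of 18 genes had a median of 0.02. Against wt, aft1aft2 had OLE1 at 0.44 ± 0.25, and the direct difference between aft1aft2 and aft1 was -3.08 ± 0.25 (adjusted p = 0.005).

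In ergosterol synthesis the late oxygen-using steps carried the calls. ERG3, ERG25 and ERG5 rose, the first with 1.54 in experiment 1 and 1.97 in experiment 2 (mean 1.76 ± 0.24 with adjusted p = 0.0296). ERG25, the methyl oxidase, which like ERG3 uses bound iron, had 1.80 in experiment 1 and 2.01 in experiment 2 (mean 1.91 ± 0.27 with adjusted p = 0.0337). ERG5, a haem enzyme, had 1.91 in experiment 1 and 2.01 in experiment 2 (mean 1.96 ± 0.23 with adjusted p = 0.0265). The other haem enzyme of the pathway, ERG11, was 1.05 ± 0.26 (adjusted p = 0.121), and ERG26 and ERG27, which act with ERG25, were 1.39 ± 0.25 and 1.13 ± 0.23. Of 27 spots 22 lay above 0, with a median of 0.72, 3 passed and 14 were higher at an unadjusted p under 0.05. Between aft1aft2 and aft1 the difference was -1.76 ± 0.24 for ERG3 and -1.50 ± 0.27 for ERG25 (adjusted p = 0.0214 and 0.0477).

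Of the phospholipid genes controlled by inositol 2 fell and 0 rose. INO1, for the first step of inositol synthesis, fell, with -2.72 in experiment 1 and -1.88 in experiment 2 (mean -2.30 ± 0.29 with adjusted p = 0.0265), and ITR1, the main inositol transporter, fell with -2.05 in experiment 1 and -1.62 in experiment 2 (mean -1.83 ± 0.29 with adjusted p = 0.0457). OPI3, for the last methylations of phosphatidylcholine synthesis, was -1.85 and -1.44 and just missed (adjusted p = 0.0553). Of 18 genes 15 lay below 0, with a median of -0.28, but 9 did with the values as deposited, where the median was -0.02.

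**Figure D3:**
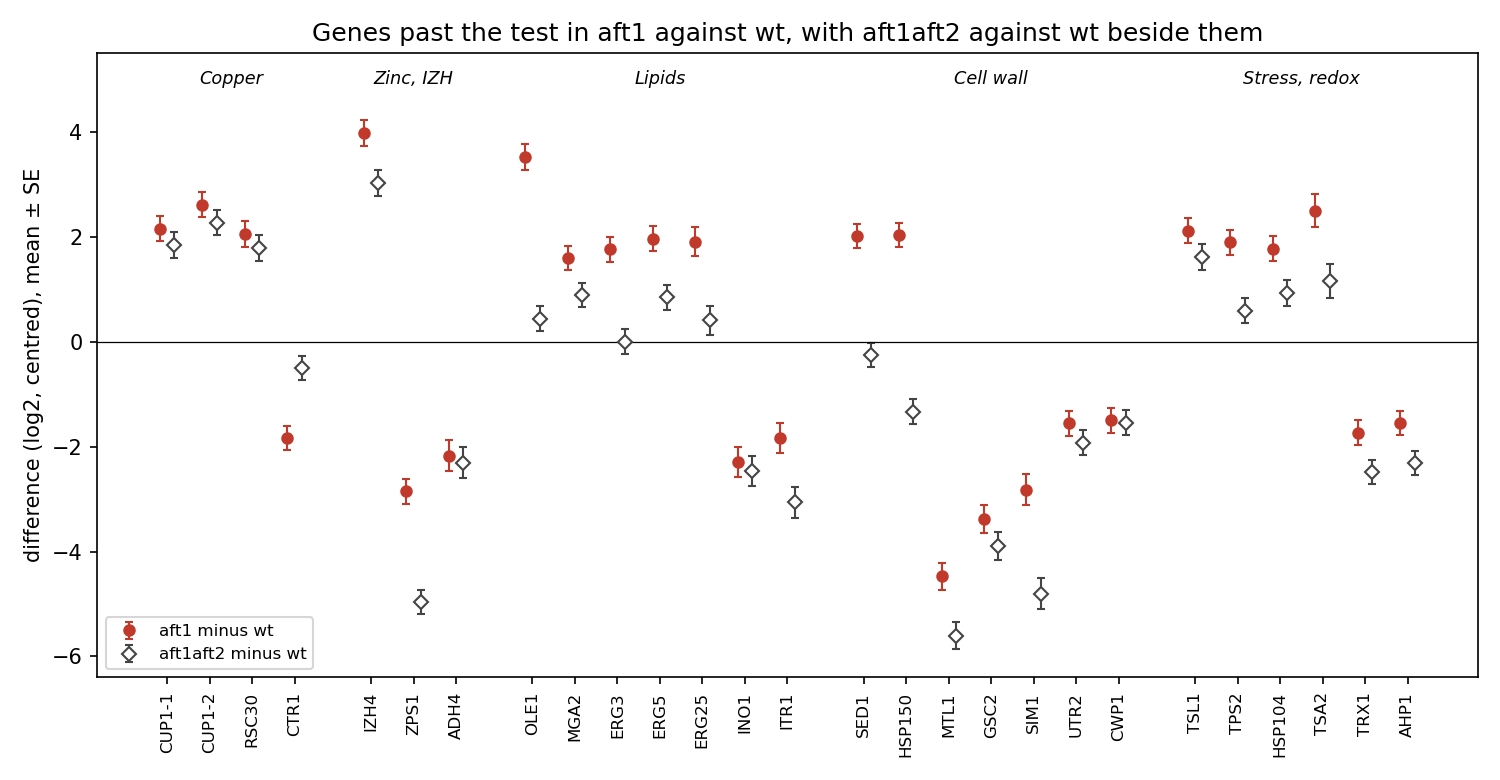
The y axis gives log2 differences (centred, mean ± SE, n = 2 hybridisations per strain) for genes that passed the test in aft1 against wt, with aft1 minus wt as filled circles and aft1aft2 minus wt, which shares the wt hybridisations, as open diamonds. OLE1 stood at 3.51 in aft1 and 0.44 in aft1aft2, SED1 at 2.01 and -0.26 and CTR1 at -1.84 and -0.50, while CUP1-2 stood at 2.61 and 2.27.

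Cell wall genes fell and rose. The lowest was MTL1, a sensor of wall stress, with -4.42 in experiment 1 and -4.53 in experiment 2 (mean -4.47 ± 0.25 with adjusted p = 0.0029). Its paralogue MID2 was -0.17 ± 0.26, so the pair of paralogues stood far apart. GSC2, also known as FKS2, the alternative glucan synthase subunit, had -3.32 in experiment 1 and -3.45 in experiment 2 (mean -3.38 ± 0.26 with adjusted p = 0.00674), while FKS1, the main subunit, was -0.24 ± 0.27. IMO32, the neighbour of GSC2 on chromosome VII, also fell, with -1.75 in experiment 1 and -3.30 in experiment 2 (mean -2.52 ± 0.40 with adjusted p = 0.046). SIM1, of the SUN family, had -2.88 in experiment 1 and -2.77 in experiment 2 (mean -2.82 ± 0.29 with adjusted p = 0.0194), and the remodelling enzyme UTR2 and the mannoprotein CWP1 fell with means of -1.55 ± 0.24 and -1.50 ± 0.24 (adjusted p = 0.0411 and 0.0457).

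In the other direction, SED1, the major wall protein of stationary cells, had 1.95 in experiment 1 and 2.07 in experiment 2 (mean 2.01 ± 0.23 with adjusted p = 0.0246), and HSP150, a secreted PIR protein, 1.88 in experiment 1 and 2.18 in experiment 2 (mean 2.03 ± 0.23 with adjusted p = 0.0246). Of 26 wall proteins 2 rose and 3 fell, with a median of 0.02. Between aft1aft2 and aft1, SED1 differed by -2.27 ± 0.23 and HSP150 by -3.36 ± 0.23 (adjusted p = 0.00855 and 0.00317). MTL1, GSC2, UTR2 and CWP1 did not pass in that comparison, with differences of -1.13 ± 0.25, -0.51 ± 0.26, -0.37 ± 0.24 and -0.04 ± 0.24, whereas SIM1 was lower still, by -1.98 ± 0.29 (adjusted p = 0.0261).

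Genes of the general stress response lay above 0 almost throughout. Of 27 genes of the general stress response 26 were above 0, with a median of 0.98, or 0.92 and 1.06 in experiments 1 and 2, and 4 rose. Those were TSL1 and TPS2 of trehalose synthesis, the hexokinase gene HXK1 and the disaggregase gene HSP104. TSL1 had 1.90 in experiment 1 and 2.33 in experiment 2 (mean 2.12 ± 0.24 with adjusted p = 0.0246) and TPS2 2.06 in experiment 1 and 1.72 in experiment 2 (mean 1.89 ± 0.24 with adjusted p = 0.0265). HXK1 had 1.69 in experiment 1 and 1.46 in experiment 2 (mean 1.58 ± 0.23 with adjusted p = 0.0348) and HSP104 1.65 in experiment 1 and 1.89 in experiment 2 (mean 1.77 ± 0.24 with adjusted p = 0.0296). A further 15 were higher at an unadjusted p under 0.05 only, among them GLK1 at 1.44 ± 0.26 and SSA4 at 1.29 ± 0.24. Related lists were less uniform. Heat shock protein genes had 21 above and 8 below 0, with a median of 0.38 and the lowest at -1.45. Trehalose and glycogen genes had 11 above and 6 below, with a median of 0.09.

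Genes for handling peroxide divided by member. The peroxiredoxin gene TSA2 rose, with 3.04 in experiment 1 and 1.94 in experiment 2 (mean 2.49 ± 0.32 with adjusted p = 0.0265), while its close relative TSA1 was 0.05 ± 0.23. AHP1, another peroxiredoxin gene, fell, with -1.65 in experiment 1 and -1.46 in experiment 2 (mean -1.55 ± 0.23 with adjusted p = 0.0362). TRX1, a cytosolic thioredoxin gene, fell with -1.83 in experiment 1 and -1.64 in experiment 2 (mean -1.73 ± 0.23 with adjusted p = 0.029), while TRX2 was 0.41 ± 0.27. The superoxide dismutase gene SOD1 was 0.43 ± 0.24 and the haem enzyme catalase CTT1 0.49 ± 0.24, neither past the test. Of 31 genes 1 rose and 2 fell, with a median of 0.19.

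In carbon and amino acid metabolism a few single genes rose. HXT1, the low-affinity glucose transporter, had 1.59 in experiment 1 and 2.04 in experiment 2 (mean 1.82 ± 0.25 with adjusted p = 0.029), while none of the other 13 hexose transport genes passed. ALD6, the cytosolic acetaldehyde dehydrogenase, had 1.52 in experiment 1 and 1.88 in experiment 2 (mean 1.70 ± 0.27 with adjusted p = 0.0435), and SER3, the first enzyme of serine synthesis, 1.81 in experiment 1 and 2.15 in experiment 2 (mean 1.98 ± 0.30 with adjusted p = 0.0374), with its paralogue SER33 at 0.84 ± 0.38. In glycolysis only HXK1 of 17 genes was called, and the median was -0.05 in aft1 against wt and -1.53 in aft1aft2 against wt, which shares hybridisations. With the values as deposited the glycolysis median in aft1 against wt was above 0, at 0.21. Between aft1aft2 and aft1, HXK1, ALD6 and SER3 differed by -1.88 ± 0.23, -1.97 ± 0.27 and -3.06 ± 0.30 (adjusted p = 0.0153, 0.0212 and 0.00752). PDR3, an activator of drug resistance genes, rose with 1.57 in experiment 1 and 1.53 in experiment 2 (mean 1.55 ± 0.23 with adjusted p = 0.0348), but its target PDR5 was 0.18 ± 0.24. Next to PDR3 on chromosome II lies the frame YBL005W-B of a Ty element, a retrotransposon, which also rose, at 1.53. The acyltransferase gene ICT1 rose with a mean of 1.59 ± 0.23 and the glycerol dehydrogenase gene GCY1 with 1.60 ± 0.24 (adjusted p = 0.0338 and 0.0348).

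Cytosolic ribosomal protein genes were low as a body, with small changes in each. Of 132 spots 124 lay below 0 (117 with the values as deposited), with a median of -0.92 overall and -0.99 and -0.87 in experiments 1 and 2. Of these 95 were lower at an unadjusted p under 0.05 but only 2, RPS22A and RPL25, fell over all spots, at -1.55 ± 0.23 and -1.44 ± 0.23 (adjusted p = 0.0348 and 0.0459). RPL20B and RPS9B lay just outside, with -1.38 ± 0.23 and -1.41 ± 0.23 (adjusted p = 0.0507 and 0.0524). Ribosomal protein paralogues are often near-identical and may share signal. The 69 mitochondrial ribosomal spots had a median of -0.03 (0.24 with the values as deposited) with 0 calls by limma. At an unadjusted p under 0.05 there were 5, a smaller share than over all spots. Proteasome genes lay mostly above 0, in 28 of 33 cases with a median of 0.37, and limma called 0, against 4 at an unadjusted p under 0.05.

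Among 46 genes for making ribosomes 2 fell, far beyond the rest. SRP40, a nucleolar serine-rich protein, had -4.48 in experiment 1 and -4.87 in experiment 2 (mean -4.67 ± 0.24 with adjusted p = 0.00251), the second lowest value of all spots. DRS1, an RNA helicase for the large subunit, had -3.37 in experiment 1 and -2.73 in experiment 2 (mean -3.05 ± 0.28 with adjusted p = 0.0116). The next lowest, EBP2 and NOP13, were -0.94 ± 0.23 and -0.91 ± 0.25, and the list's median was -0.27, or -0.01 with the values as deposited. SNU13, a protein of the snoRNPs and the spliceosome, fell with -1.57 in experiment 1 and -1.81 in experiment 2 (mean -1.69 ± 0.24 with adjusted p = 0.0321). BRR2, a helicase of the spliceosome, rose with 1.57 in experiment 1 and 2.02 in experiment 2 (mean 1.80 ± 0.25 with adjusted p = 0.0296).

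**Figure D4:**
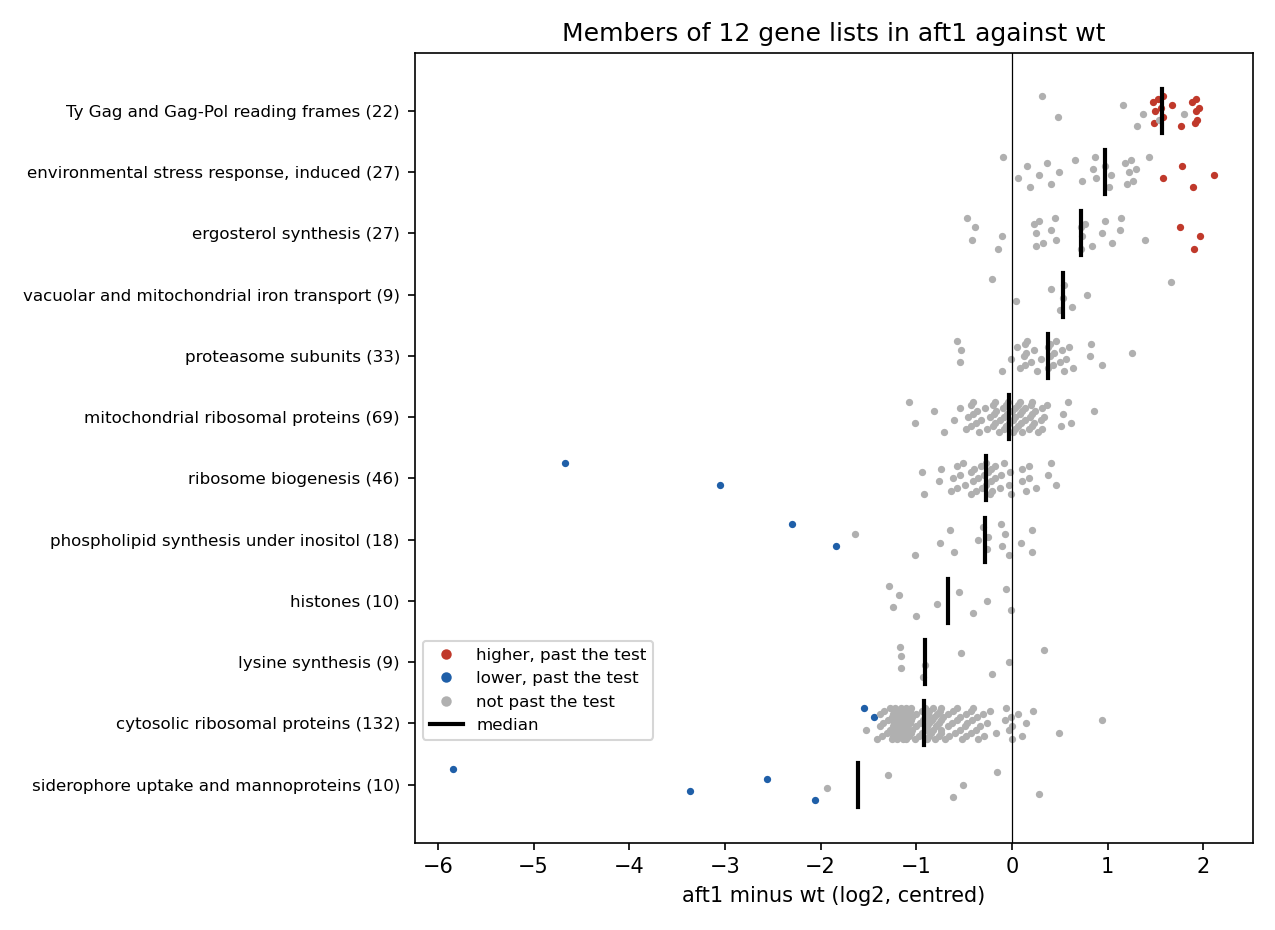
Each point is 1 spot of a gene list, with its aft1 minus wt difference on the x axis (log2, centred), black bars for list medians and numbers of spots in brackets. Ribosomal protein genes form a dense group around -0.92 and general stress response genes one around 0.98. SRP40 and DRS1 stand at -4.67 and -3.05, far below the median of -0.27 of the genes for making ribosomes.

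Of the genes for replication and chromatin assembly, a list of 26 chosen after its values were seen, 3 fell and 0 rose. ASF1, a chaperone for histones H3 and H4, had -2.82 in experiment 1 and -3.03 in experiment 2 (mean -2.92 ± 0.27 with adjusted p = 0.0116), and RLF2, the large subunit of chromatin assembly factor CAF-1, had -2.26 in experiment 1 and -2.15 in experiment 2 (mean -2.20 ± 0.25 with adjusted p = 0.0246). CAC2, for another CAF-1 subunit, was 0.43 ± 0.45. POL30, the sliding clamp of replication, fell with -1.59 in experiment 1 and -1.77 in experiment 2 (mean -1.68 ± 0.23 with adjusted p = 0.0296). All 10 histone spots lay below 0 (7 with the values as deposited), with a median of -0.67, HTB1, HTB2 and HTA2 lowest at -1.29 ± 0.24, -1.24 ± 0.24 and -1.18 ± 0.25, and limma called 0, against 4 at an unadjusted p under 0.05. Outside that list SWE1, the kinase that delays entry into mitosis, fell with -2.26 in experiment 1 and -2.78 in experiment 2 (mean -2.52 ± 0.32 with adjusted p = 0.0265), and TOM1, a large ubiquitin ligase, with -2.16 in experiment 1 and -1.72 in experiment 2 (mean -1.94 ± 0.25 with adjusted p = 0.0266).

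A pair of protein complexes showed calls in some subunits only. CAB3 and SIS2, subunits of an enzyme of coenzyme A synthesis, fell, with -2.66 in experiment 1 and -3.24 in experiment 2 (mean -2.95 ± 0.25 with adjusted p = 0.00944) and -2.39 in experiment 1 and -1.83 in experiment 2 (mean -2.11 ± 0.29 with adjusted p = 0.0296), while VHS3, the remaining subunit gene, was 0.47 and 0.08 (mean 0.28 ± 0.36). RFM1, which links the histone deacetylase Hst1 to the repressor Sum1, fell with -3.35 in experiment 1 and -3.73 in experiment 2 (mean -3.54 ± 0.28 with adjusted p = 0.00674), while SUM1 was -0.36 ± 0.28 and HST1 0.53 ± 0.27. These partners were named after their values were seen. OSW7 had -3.56 in experiment 1 and -3.71 in experiment 2 (mean -3.63 ± 0.24 with adjusted p = 0.00437), and no role is given to it here. APA1, which breaks down dinucleotides such as AP4A, fell with -1.57 in experiment 1 and -1.87 in experiment 2 (mean -1.72 ± 0.25 with adjusted p = 0.0338).

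Other calls were higher and belong to none of the groups above. PBI1 had 2.73 in experiment 1 and 2.53 in experiment 2 (mean 2.63 ± 0.23 with adjusted p = 0.00974), YGL039W 2.69 in experiment 1 and 2.04 in experiment 2 (mean 2.37 ± 0.29 with adjusted p = 0.0265) and TMA10 2.06 in experiment 1 and 2.38 in experiment 2 (mean 2.22 ± 0.26 with adjusted p = 0.0246). AIM17, ECM13, ECL1 and YRO2 rose with means of 2.01 ± 0.29, 1.86 ± 0.23, 1.55 ± 0.24 and 1.43 ± 0.23. Among all calls, higher or lower, YRO2, RPL25, IMO32 and the Ty frames YHR214C-B and YJR027W were the closest to the threshold from inside. RPL20B, CAD1, CPR5, RPS9B and ARN1 were the closest from outside, with adjusted p-values of 0.0507, 0.0507, 0.0517, 0.0524 and 0.0553. The stress regulator gene CAD1 was 1.73 ± 0.28 there and CPR5, for a prolyl isomerase of the endoplasmic reticulum, -1.63 ± 0.27.

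Paired reading frames of Ty elements, the retrotransposons of yeast, made up 15 of the 51 higher calls. Such elements carry a Gag frame and a longer Gag-Pol frame that start at the same base. In the R64 assembly 39 such pairs were found, with the longer frame at least 5000 bases, and 22 of their 78 frames had a spot. All 22 lay above 0 in aft1, with a median of 1.57, or 1.46 and 1.70 in experiments 1 and 2, and 15 rose. The copies are near-identical and may share signal, so the 22 spots are not separate observations. YAR010C, which is outside the pairing rule, also rose, with 1.80 in experiment 1 and 1.83 in experiment 2 (mean 1.82 ± 0.23 with adjusted p = 0.0265).

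By length, the 7 Gag frames of 1323 bases lay between 1.67 and 1.96, and 6 of them rose. Highest was YJR026W, with 1.65 in experiment 1 and 2.26 in experiment 2 (mean 1.96 ± 0.26 with adjusted p = 0.029). The 2 Gag frames of 1317 bases, YCL020W and YBL100W-A, were 0.31 ± 0.23 and 0.48 ± 0.24, well below the other class and not past the test. Their Gag-Pol partners of 5314 bases, YCL019W and YBL100W-B, were 1.16 ± 0.23 and 1.31 ± 0.23 and also missed the threshold (adjusted p = 0.0788 and 0.0652). The 9 Gag-Pol frames of 5269 bases lay between 1.37 and 1.76, and 7 of them rose. The single Gag-Pol frames of 5272 and 5383 bases, YBR012W-B and YHR214C-B, also rose, at 1.93 ± 0.26 and 1.47 ± 0.24, the first of them within the range of the Gag frames of 1323 bases. This grouping by length was made after the values were seen, and no test was run between classes.

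The strain labelled aft1aft2 had these frames low. Against wt, aft1aft2 had a median of -1.32 over the 22 frames with 13 called lower, where 3.71% of all spots were called lower. Directly between aft1aft2 and aft1, 20 of 22 were called lower, where 2.6% of all spots were. That comparison uses the aft1 hybridisations in which the frames were high, so it is not a separate test of them. YJR028W, for one, had 1.72 in experiment 1 and 2.14 in experiment 2 (mean 1.93 ± 0.24 with adjusted p = 0.0265) in aft1 against wt, and differed by -3.78 ± 0.24 between aft1aft2 and aft1 (adjusted p = 0.00317). The Gag frames of 1317 bases differed by -0.19 ± 0.23 and -0.45 ± 0.24 there.

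**Figure D5:**
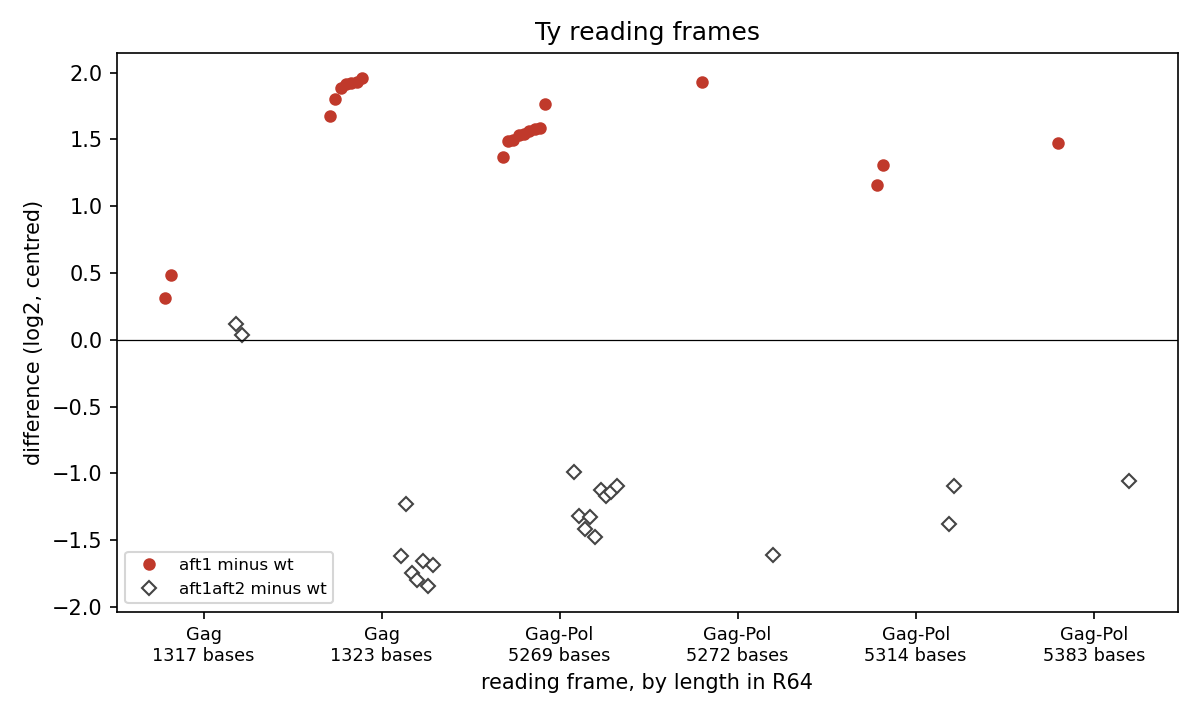
Ty reading frames are grouped on the x axis by type and by length in R64, and the y axis gives the log2 difference (centred), with aft1 minus wt as filled circles and aft1aft2 minus wt as open diamonds. All 22 frames lie above 0 in aft1, the 2 Gag frames of 1317 bases lowest at 0.31 and 0.48, and the Gag frames of 1323 bases lie between 1.67 and 1.96.

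The experiments disagreed most at SIP3, with 2.39 in experiment 1 and -2.47 in experiment 2, so that its mean of -0.04 ± 1.01 describes neither. FAA3, an acyl-CoA synthetase gene, had 1.51 and -1.52, and FRE8, a reductase homologue, 0.41 and -2.60. MAG2 had -3.38 and 0.35, RHO2 1.27 and -2.39, FCF2 -0.24 and -3.48, HAP5 -2.94 and 0.22, and SUV3 -0.07 and 2.72. None of them passed the test.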

How the data were processed

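Log ratios of 3 yeast strains were analysed, each pair compared in experiments 1 and 2. Per the labels' protocols, membranes were read with a phosphor screen and quantified with the PATHWAYS 3 software. The values the authors deposited are log ratios, 1 for each spot of a sample, and were read as log2. Their base, normalization, direction and genome build are not stated in the labels. The first-named strain was assumed to be on top, the sign was turned to mutant minus wt, and each column was centred on its median. Signal and background per spot are unknown, so depth gives no interval, and the number of membranes limits the precision.

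Gene names came from the platform annotation, which named 5523 spots and left 561 unnamed, and from the R64 gene table, in which 100% of the named spots were found. No spot had several symbols. There were 5490 symbols, 32 of them on more than 1 spot. The 3 ratios of an experiment added up within 0.01 at every spot, so they came from 3 hybridisations, and strain levels were estimated from them by least squares. Strain and experiment were fitted to these levels with limma 3.58.1 (R 4.3.3), which left 2 residual degrees of freedom and estimated a prior of 4.25 degrees of freedom and a prior variance of 0.0754. The pairing by experiment comes from the ratios themselves, which were formed within an experiment. Tests were two-sided, with Benjamini-Hochberg adjustment over 6084 spots and a threshold of 0.05. Comparisons with aft1aft2 share hybridisations with aft1 against wt, so their adjusted p-values are not separate evidence. Genes quoted for aft1aft2 against aft1 were chosen by their aft1 values. In that comparison 14 spots were called higher and 158 lower, so calls there ran mostly downward.

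The genes named were drawn from the 25 largest calls each way, all called members of the gene lists and the largest others, the iron, copper and IZH genes, strain markers, spots near the threshold and spots on which the experiments disagreed most. Not every gene of these sets is named. Members of the lists and the lists themselves were chosen with earlier results of these data known, and lists carry no test. The lists for replication and chromatin assembly, coenzyme A synthesis, serine synthesis and Ty frames were chosen after the values were seen. Alternatives were the values as deposited, scaled columns, quantile normalization, no block for experiment, a robust prior, averaged spots, the 2 columns alone and each hybridisation left out in turn. Promoter and protein sequences were not used here.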

Additional observations from a re-analysis of the deposited data

How the results depend on the processing

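With 89 spots past the test in aft1 against wt, 58 passed with the values as deposited (44 higher, 14 lower), 217 with columns scaled, 590 with no replicate block for experiment and 44 from the 2 columns alone, while 239 met the 2-fold rule. Without the block the fit counts more residual degrees of freedom than are independent. Leaving out 1 hybridisation gave between 4 and 233, the extremes being the aft1 hybridisation of experiment 2 and either aft1aft2 hybridisation. Quantile normalization, a robust prior and averaged spots gave 114, 88 and 89. Of the 89 calls, 57 passed with the values as deposited, 43 from the 2 columns alone, 7 and 4 without an aft1 hybridisation, 39 and 29 without a wt one, and all 89 in the other settings except the robust prior, with 88. All kept their sign, which the large and similar changes needed for a call made likely in advance. For aft1aft2 against aft1, with 172 spots, 52 passed with the values as deposited (2 higher, 50 lower), 950 with no replicate block, and between 13 (without the aft1 hybridisation of experiment 2) and 503 (without the aft1aft2 hybridisation of experiment 1) on leaving out 1. For aft1 against wt, the fits without an aft1aft2 hybridisation and the 2 columns alone rest on the same hybridisations, yet gave 233 and 44. The cause of this and of the other differences was not tested.

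Turned signs were looked up gene by gene only for the called spots and the genes named in the text. Other spots turned too. Of 46 genes for making ribosomes 9 lay above 0 when centred and 22 with the values as deposited. Among the genes looked up, signs turned only for genes that had not passed the test. With the values as deposited these stood at 0.022 for ATX1, 0.03 for CTH1, 0.26 for FAA3, 0.10 for FIT1, 0.025 for FKS1, 0.16 for FTR1, 0.08 for GRX4, 0.09 for MID2, 0.23 for SIP3 and 0.053 for YFH1. With columns scaled FAA3 stood at 0.093 and SIP3 stood at 0.092. With quantile normalization FAA3 stood at 0.17 and SIP3 stood at 0.13. On leaving out 1 hybridisation the values ranged from -0.16 to 0.22 for AFT1, from -1.06 to 0.39 for AFT2, from -0.88 to 0.40 for ATX1, from -0.27 to 1.13 for CAC2, from -1.01 to 0.37 for CCC2, from -0.56 to 0.092 for CTH1, from -1.69 to 1.68 for FAA3 and from -0.50 to 0.022 for FKS1. They ranged from -0.32 to 0.40 for FRE6, from -2.29 to 0.093 for FRE8, from -0.31 to 0.11 for FTR1, from -0.65 to 0.28 for GRX4, from -2.76 to 0.044 for HAP5, from -3.30 to 0.27 for MAG2, from -0.45 to 0.10 for MID2 and from -2.12 to 1.01 for RHO2. They ranged from -2.02 to 1.94 for SIP3, from -0.089 to 0.58 for SPT23, from -0.072 to 0.17 for TSA1, from -0.15 to 0.71 for VHS3 and from -0.15 to 0.32 for YHR054C. The comparison of promoter motifs and of protein composition was not run, since no sequence table was at hand. With 2 residual degrees of freedom the smallest called change was 1.43 in size on the log2 scale, so genes that missed the threshold are not shown to be alike in both strains.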
